A study of Homo sapiens with 6 samples.

Results

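Olfactory receptor genes were examined as a family that melanoma cells are not expected to use. The members are the gene symbols that begin with OR followed by a family number, a subfamily letter and a member number. This rule was met by 27 of the 12438 symbols in the deposited tables, in 36 of 22442 rows, and for each symbol the row with the largest mean over the gene body columns was used. The data come from global run-on sequencing (GRO-seq), in which RNA polymerase that is already engaged on DNA continues its transcript in nuclei taken from the cells, and the RNA made in this run-on is sequenced. The cells were A375, an established human malignant melanoma line. For 48 h they received 25 µM A771726, 25 µM leflunomide or the solvent DMSO, with 2 libraries in each of the 3 groups. Leflunomide is a prodrug with an isoxazole ring, and A771726 (teriflunomide) is the active form that arises when this ring opens. Both inhibit DHODH, a mitochondrial enzyme of pyrimidine synthesis. The tables give the authors' mean over the libraries of each group, so the densities below carry no SD and no test between groups was made.

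Olfactory receptors are G protein-coupled receptors that detect odorants. Their genes form the largest gene family in mammals, lie in clusters on many chromosomes and mostly have a coding sequence without introns. In an olfactory sensory neuron a single receptor allele is normally chosen for expression while the other receptor genes are kept in closed chromatin. The receptor then acts through the G protein subunit encoded by GNAL, the adenylyl cyclase ADCY3 and a cyclic nucleotide-gated channel. Class I receptors, here the OR51 genes, resemble those of fish, and class II receptors make up the rest of the family.

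The 27 genes are a small and selected share of the family. The RefSeq gene table used for current names lists 392 protein-coding genes that meet the rule, and 23 of these (5.87%) were among the members, together with 3 transcribed pseudogenes (OR1F2P, OR2L1P and OR7E5P) and OR8G2, whose transcript was not matched. The other receptor genes were not analysed here. In DMSO no row has a gene body density of 0, no row has an undefined traveling ratio (promoter density over gene body density), and the highest ratio is 7.5. An undefined ratio arises when a library has a gene body density of 0, so each row in the tables had gene body signal in both DMSO libraries. No such limit is seen in the compound groups, and this asymmetry bears on each comparison with DMSO below.

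Melanocyte and melanoma markers ranged from high to low. Of 13 on the list 7 were measured, and the other 6 were not analysed here. The lineage factor gene SOX10 had a gene body density of 0.273 with A771726, 0.330 with leflunomide and 0.329 in DMSO, above 98.6% of symbols by its mean. S100A1 and MIA lay above 97.6% and 97.5% of symbols, and the neural crest factor gene PAX3 above 71.9%. The pigment cell regulator MITF was lower, at 0.0156 with A771726, 0.0226 with leflunomide and 0.0123 in DMSO, above 48.7%. The pigment cell genes PMEL and MLANA lay above 48.4% and 28.6%. Of 4 keratinocyte markers 2 were measured, KRT14 above 37.1% of symbols and KRT10 above 94.7%, at 0.106, 0.119 and 0.134.

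The receptor genes had a lower median gene body density than all symbols in each group, and their levels ranged widely. The median over the 27 genes was 0.00515 with A771726, 0.00905 with leflunomide and 0.0122 in DMSO. Each of these is the value of OR4F3, OR4F16 and OR4F29, which are identical in each column. Median levels with identical genes counted once were not computed. Over all symbols the medians were 0.0128, 0.0188 and 0.0196. By the mean of the 3 groups 6 of the 27 genes lay above the median symbol, 2 lay in the lowest 10% of symbols and 1, OR13H1, lay in the highest 10%. A filter at the 30th percentile of mean density (0.00872) was passed by 17 of the 27. For scale, 73 cytosolic ribosomal protein genes had median densities of 0.117 with A771726, 0.183 with leflunomide and 0.238 in DMSO. The 7 bitter taste receptor genes (TAS2R), another sensory receptor family, had medians of 0.00975, 0.0173 and 0.0114. Keratin-associated protein, beta-defensin, cornified envelope and vomeronasal receptor genes, other families specific to a tissue, were not analysed here.

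**Figure D1:**
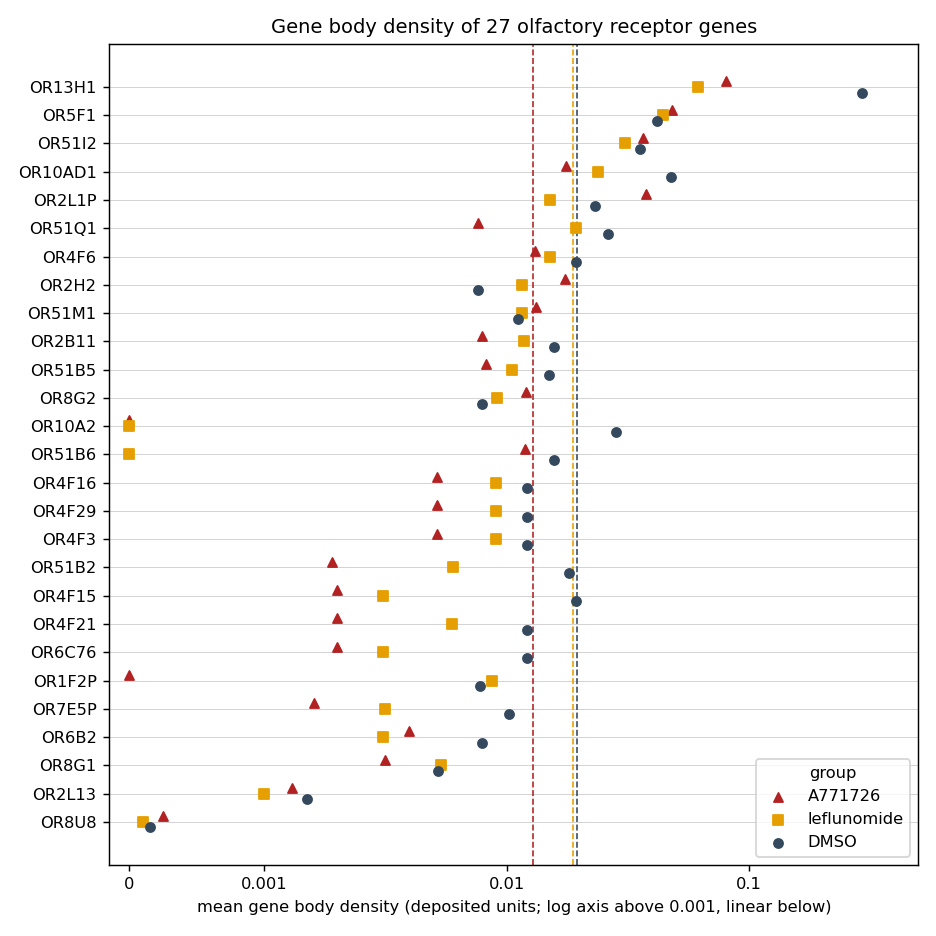
Authors' mean gene body density (deposited units, log axis above 0.001 and linear below) of the 27 olfactory receptor genes, ordered by their mean, with A771726 as triangles, leflunomide as squares and DMSO as circles. Dashed lines mark the median of all symbols in each group (0.0128, 0.0188 and 0.0196). OR13H1 lies far to the right in DMSO (0.294), and 20 genes have a lower mean with A771726 than in DMSO.

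OR13H1 is a class II receptor gene and the member with the highest gene body density in each group. Its gene body density was 0.0804 with A771726, 0.0615 with leflunomide and 0.294 in DMSO, where it exceeded 98.0% of symbols. The A771726 and leflunomide means were 0.274 and 0.209 times the DMSO mean. OR13H1 alone made up 23.3% of the summed gene body density of the 27 genes with A771726, 18.6% with leflunomide and 40.8% in DMSO. Its promoter density was 0 with A771726, 0.00675 with leflunomide and 0 in DMSO. The leflunomide value is less than 1 read would give in either library of that group (a mean of 0.0174 or 0.0188), so the density counts part of a read. How the signal of OR13H1 was spread over the DMSO libraries could not be recovered.

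The next genes in the order were OR5F1, OR51I2, OR10AD1 and OR2L1P. OR5F1, a class II gene, had 0.0482 with A771726, 0.0440 with leflunomide and 0.0417 in DMSO. The class I gene OR51I2 had 0.0364, 0.0309 and 0.0355. In both genes the means of the groups lay close together, with log2 changes over DMSO from −0.19 to 0.20. OR51I2 could be split by library with A771726, where its 1 promoter read lay in library 1, and the gene body densities were 0.0230 and 0.0498. The libraries of 1 group thus differed more at OR51I2 than the group means did.

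OR10AD1 had the highest promoter densities with the compounds. Its gene body density was 0.0176 with A771726, 0.0238 with leflunomide and 0.0479 in DMSO, and its promoter density was 0.119, 0.0521 and 0 in the same order. The gene body was thus lowest with A771726 and the promoter highest there. The traveling ratio was 6.71 with A771726, 2.28 with leflunomide and 0 in DMSO. With leflunomide its promoter reads lay in library 1, and the gene body densities of the libraries were 0.0228 and 0.0247. Since the DMSO value is 0, no fold of its promoter or ratio is given. In the later assembly OR10AD1 overlaps LOC102725258, and reads of the pair may not be told apart.

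Upstream sequences are given for OR13H1, the gene with the highest gene body density, and OR10AD1, the gene with the highest promoter density with the compounds. Another is that of OR6C76, a gene with 1 to 3 gene body reads in each group. Each is the 250 bases before the start of the RefSeq gene model, from RefSeq on GRCh38.p14, a later build than the hg18 of the deposited files. Whether transcription starts at these gene model starts was not tested. The windows are chrX:131543824-131544073 on the plus strand for OR13H1, chr12:48203293-48203542 on the minus strand for OR10AD1 and chr12:55426004-55426253 on the plus strand for OR6C76. Capitals mark CG dinucleotides and TATAAA on either strand.
OR13H1: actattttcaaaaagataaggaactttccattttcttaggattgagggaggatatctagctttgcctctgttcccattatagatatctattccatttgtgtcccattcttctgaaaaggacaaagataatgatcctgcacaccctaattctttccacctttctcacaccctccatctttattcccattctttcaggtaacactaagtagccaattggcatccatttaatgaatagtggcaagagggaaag
OR10AD1: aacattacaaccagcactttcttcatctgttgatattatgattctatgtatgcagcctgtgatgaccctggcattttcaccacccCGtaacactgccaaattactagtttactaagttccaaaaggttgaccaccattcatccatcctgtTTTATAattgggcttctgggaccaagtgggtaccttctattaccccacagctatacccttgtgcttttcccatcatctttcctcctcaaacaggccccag
OR6C76: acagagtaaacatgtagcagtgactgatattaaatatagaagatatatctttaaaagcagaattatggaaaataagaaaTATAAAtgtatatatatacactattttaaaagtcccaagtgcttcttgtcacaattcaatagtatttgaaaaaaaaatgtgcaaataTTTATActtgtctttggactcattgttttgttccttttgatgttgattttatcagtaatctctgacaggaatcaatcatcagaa

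These upstream sequences are poor in G and C. A promoter sequence here means such a window before a gene model start. Windows were matched for 12 of the 27 genes (13 starts). Their GC content had a median of 40.4% (26.4% to 65.6%), against 58.0% over 35116 promoters of all genes. The median number of CG dinucleotides was 1 against 11. Over 329 receptor gene promoters in the RefSeq table the medians were 37.2% GC and 1 CG. The highest GC content and CG number (65.6% and 16) were at 1 of the 2 starts of OR2L13. OR13H1 had 38.0% GC and no CG, OR10AD1 43.6% and 1 CG, and OR6C76 26.4% and no CG. TATAAA on either strand was present in 6 of the 13 (46.2%) and in 10.7% of all promoters, and TAATTA in 4 (30.8%) and in 4.35%. Over the 329 receptor promoters the shares were 33.1% for TATAAA and 20.1% for TAATTA. Matches of both motifs may overlap, and TAATTA reads the same on both strands. TAATTA is a core bound by homeodomain factors such as LHX2, a regulator of receptor genes in the nose. A match of letters is not a binding site.

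Promoter signal was found in 9 of the 27 genes in at least 1 group (33.3%). Promoter density was above 0 in 5 of the 27 genes with A771726 (18.5%), 6 with leflunomide (22.2%) and 1 in DMSO (3.70%). Over all symbols the shares were 60.3%, 65.1% and 57.1%, and among the 3732 symbols below the 30th percentile of mean gene body density 26.1%, 29.7% and 17.4%. No receptor gene had promoter signal in all 3 groups, and 18 of 27 had none in any group (66.7%, against 24.5% of all symbols). The promoter value in DMSO belonged to OR51B6 (0.104), and it lay in 1 of the libraries. At this depth a promoter value of 0 does not show that no polymerase was present.

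The traveling ratio could not be compared with DMSO. Of the 27 genes, 0 had a finite ratio above 0 both with A771726 and in DMSO, and 0 both with leflunomide and in DMSO. Between the compounds, OR10AD1 and OR51B5 had ratios in each, 6.71 with A771726 and 2.28 with leflunomide at OR10AD1, and 1.98 and 1.85 at OR51B5. OR51B6 was the gene with a ratio above 0 in DMSO (6.08).

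A library with a gene body density of 0 was found at a larger share of receptor genes than of all symbols with each compound. The ratio was undefined or infinite, which marks such a library, in 15 of 27 receptor genes with A771726 (55.6%), in 7 with leflunomide (25.9%) and in 0 in DMSO. The background was 8.43% with A771726, 4.42% with leflunomide and 0 in DMSO over all symbols, and 18.8%, 12% and 0 below the 30th percentile. Neither background is matched on gene length or read number, and 17 of the 27 receptor genes lie at or above that percentile. The larger shares are thus not read as a trait of receptor genes. In 6 receptor genes the ratio was undefined or infinite with both compounds. Where whole reads could be recovered (12 distinct patterns), library 1 of A771726, the one in which a read has the smaller value, was at 0 in 2 and library 2 in 10. Apart from OR51M1, the genes of these patterns are all among the 15, so they are a selected subset of the 27. The gene body mean itself was 0 in both compound groups at OR10A2, with leflunomide at OR51B6 and with A771726 at OR1F2P.

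**Figure D2:**
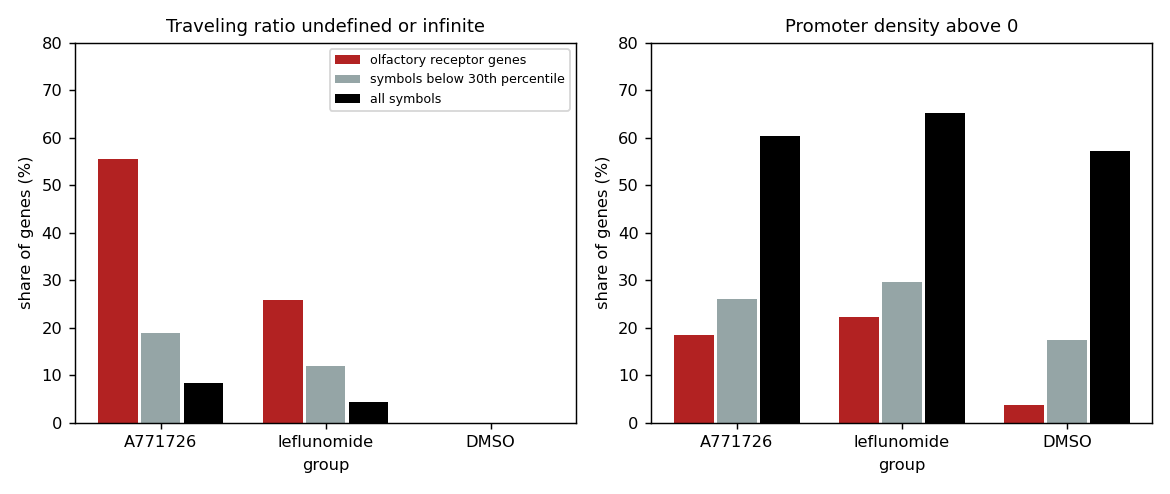
Share of genes (%, bars from 0) whose deposited traveling ratio is undefined or infinite, left, and whose promoter density is above 0, right, by group, for the 27 olfactory receptor genes, the symbols below the 30th percentile of mean gene body density and all symbols. Receptor genes have the highest share on the left (55.6% with A771726) and the lowest on the right (3.70% in DMSO). The sets are not matched on gene length or read number. Reads were recovered for 12 patterns, which apart from OR51M1 are of genes with such a ratio with A771726. In these, library 2 of A771726 was at 0 in 10 and library 1 in 2.

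Under the assumption of whole reads, the values of 14 receptor genes stand for a few reads in each library. The assumption does not hold everywhere, since the promoter values of OR13H1 and OR4F6 with leflunomide (0.00675 and 0.0133) are below that of 1 read. In the promoter columns the most common values show what 1 read adds to a mean, 0.0121 and 0.0157 in the A771726 libraries, 0.0174 and 0.0188 with leflunomide and 0.0219 and 0.0260 in DMSO. Assuming whole reads, and 1 common window size per gene, the gene body means of 14 of the 27 genes had a single solution that no ratio contradicted. Among them only OR51Q1, OR51M1 and OR51B6 had a finite ratio above 0 by which the reads could be checked. OR4F15 also had promoter signal, but its ratio with leflunomide was infinite. That asks only for a library at 0, which the solution already required. The 14 genes make 12 distinct patterns, since OR4F3, OR4F16 and OR4F29 have identical values in each column. These are near-identical copies whose reads cannot be told apart. Library 1 is the one whose read has the smaller value, and it was not matched to a labelled replicate. Beyond these, OR4F6 had a single solution that its ratio with leflunomide contradicted, and it was left out.

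The counts were between 0 and 6 reads in a library. At OR6B2 there were 2 and 0 reads with A771726, 0 and 1 with leflunomide and 1 and 1 in DMSO. Even so its DMSO density of 0.00790 exceeded 26.2% of symbols, so 1 read per DMSO library was enough for that rank in a gene of this size. OR6C76 had 1 and 0 reads, 0 and 1, and 1 and 2 in the same order. OR4F15 had 1 and 0, 0 and 1, and 3 and 2. OR4F21 had 1 and 0, 1 and 1, and 1 and 2. These 4 genes had their highest summed reads in DMSO, apart from OR6B2, where A771726 equalled DMSO at 2.

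Other genes did not follow that order. OR8G2 had 6 and 0 reads with A771726, 1 and 2 with leflunomide and 1 and 1 in DMSO. OR51B6 had 6 and 0 reads with A771726, 0 and 0 with leflunomide and 2 and 2 in DMSO. In both genes the A771726 mean came from library 1 alone. OR51M1 had 3 and 3 reads, 2 and 2, and 2 and 1, so its counts, which are not scaled between libraries, were higher in both A771726 libraries than in both DMSO libraries. The pseudogene OR1F2P had 0 and 0 reads with A771726, 2 and 1 with leflunomide and 1 and 1 in DMSO. In each of the 14 genes the exact Poisson 95% interval of the summed reads with either compound overlapped that in DMSO. This could not have come out otherwise, so nothing is concluded from it. The summed reads ran from 0 to 7, and the interval for 0 reaches 3.69 while that for 7 starts at 2.81. These intervals cover counting error only, and reads amplified by PCR are not independent molecules.

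**Figure D3:**
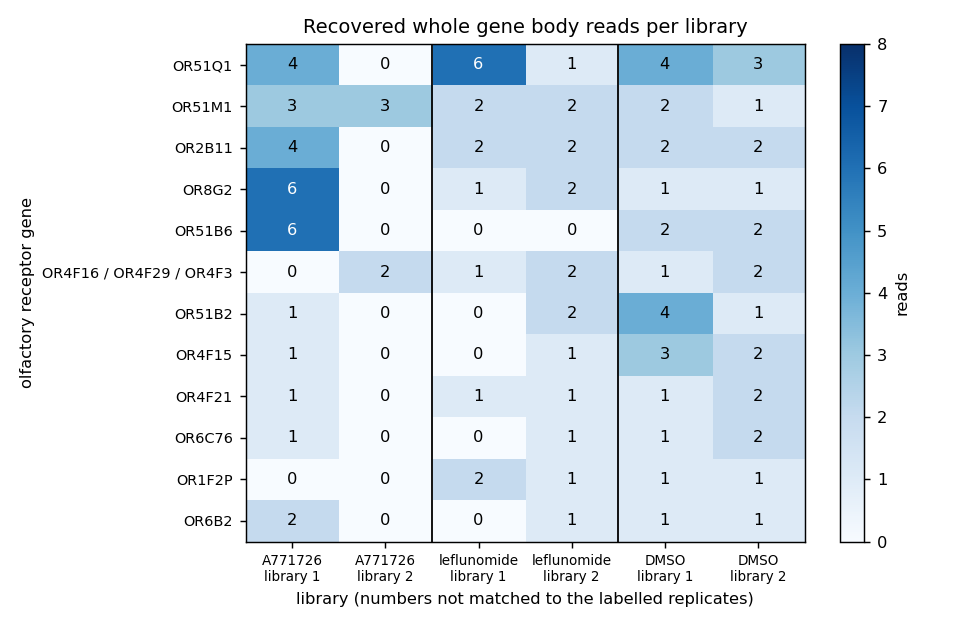
Recovered whole gene body reads per library (colour and number) for 12 distinct patterns of 14 olfactory receptor genes, with A771726 left, leflunomide in the middle and DMSO right. In A771726 library 2 the count is 0 in 10 of the 12 patterns. In the DMSO libraries it is 0 in none, which was fixed in advance, since each row has gene body signal in both. Apart from OR51M1, these are genes with an A771726 library at 0 by their ratios.

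Library 2 of A771726 held the fewest of the recovered reads, which come from a selected subset. All solved genes but OR51M1 have an A771726 library at 0 by their ratios. Among the genes not solved only OR2H2 and OR10A2 do. At 2 genes not solved the A771726 densities could be split, 0.0230 in library 1 and 0.0498 in library 2 at OR51I2, and 0.0085 and 0.0079 at OR51B5. Over the 12 patterns library 2 of A771726 held 5 reads, against 29 in library 1 of A771726. The leflunomide libraries held 15 and 16 reads, and the DMSO libraries 23 and 20. No interval is given for these sums, since the genes are not replicates. A solution had to have an A771726 library at 0 where that ratio was undefined, so part of the gap was fixed by the choice of genes. Nothing is concluded from these sums. The count was 0 at 2 and 10 of the 12 patterns in the A771726 libraries and at 5 and 1 in the leflunomide libraries. It was 0 at none in the DMSO libraries, where each row has gene body signal, so this was fixed in advance. A read in A771726 library 2 has the larger value of the pair, 0.0313 against 0.0241 density units at a promoter. Whether depth or another property of A771726 library 2 had a part in its low count was not tested.

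Changes in gene body density are on the scale of log2(density + 0.0022), which understates those of low genes. With A771726, 10 of the 27 genes were at least 2-fold lower than in DMSO on this scale (37.0%), against a background of 16.4% of all symbols and 11.4% of those below the 30th percentile. None was at least 2-fold higher on this scale, against 0.667% and 0.268%. By the plain quotient of the means, an alternative added after seeing the data, 14 genes were at least 2-fold lower and 1 higher, against 25.5% and 2.07% of all symbols. The median log2 change was −0.83 over the receptor genes, −0.44 over all symbols and −0.27 below the 30th percentile. Relative to the median of all symbols it was −0.39, with 9 genes at least 2-fold lower and 2 higher (OR2H2 at 1.44 and OR2L1P at 1.10). As rows are in the tables through their DMSO values, part of a lower value with a compound cannot be told apart from this selection. The backgrounds were also not matched on gene length or read number. The 10 were OR13H1 (−1.84), OR10AD1 (−1.34), OR51Q1 (−1.54), OR51B2 (−2.31), OR4F15 (−2.36), OR4F21 (−1.77), OR6C76 (−1.77), the pseudogene OR7E5P (−1.71), and OR10A2 and OR1F2P, which are listed at 0 with A771726. At OR51B2 the reads were 1 and 0 with A771726, 0 and 2 with leflunomide and 4 and 1 in DMSO. At OR51Q1 they were 4 and 0, 6 and 1, and 4 and 3, so library 1 had the same unscaled count with A771726 and in DMSO. The largest increase was at OR2H2, where the density was 0.0175 with A771726 and 0.00765 in DMSO (a plain quotient of 2.28, and a log2 change of 1.00 after rounding that is under the 2-fold limit with the pseudocount added), followed by OR2L1P (0.66) and OR8G2 (0.48).

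With leflunomide, 7 of the 27 genes were at least 2-fold lower than in DMSO (25.9%), against a background of 4.93% of all symbols and 5.95% of those below the 30th percentile, and none was at least 2-fold higher on this scale, against 1.7% and 1.39%. By the plain quotient 10 were lower and 0 higher, against 8.98% and 4.11% of all symbols. The median log2 change was −0.35, against −0.05 over all symbols and −0.03 below the 30th percentile. The 7 were OR13H1 (−2.22), OR4F15 (−2.02), OR6C76 (−1.44), OR51B2 (−1.31), OR7E5P (−1.22), and OR10A2 and OR51B6, which are listed at 0 with leflunomide. OR7E5P had densities of 0.00160 with A771726, 0.00315 with leflunomide and 0.0103 in DMSO. The highest values were at OR2H2 (0.48), OR8G2 (0.16) and OR1F2P (0.12). Both comparisons use the same DMSO means, and backgrounds not matched on gene length or read number. In 18 of the 27 genes DMSO had the highest of the 3 means (66.7%, against 50.5% of all symbols and 46.2% below the 30th percentile), and in 4 it had the lowest.

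**Figure D4:**
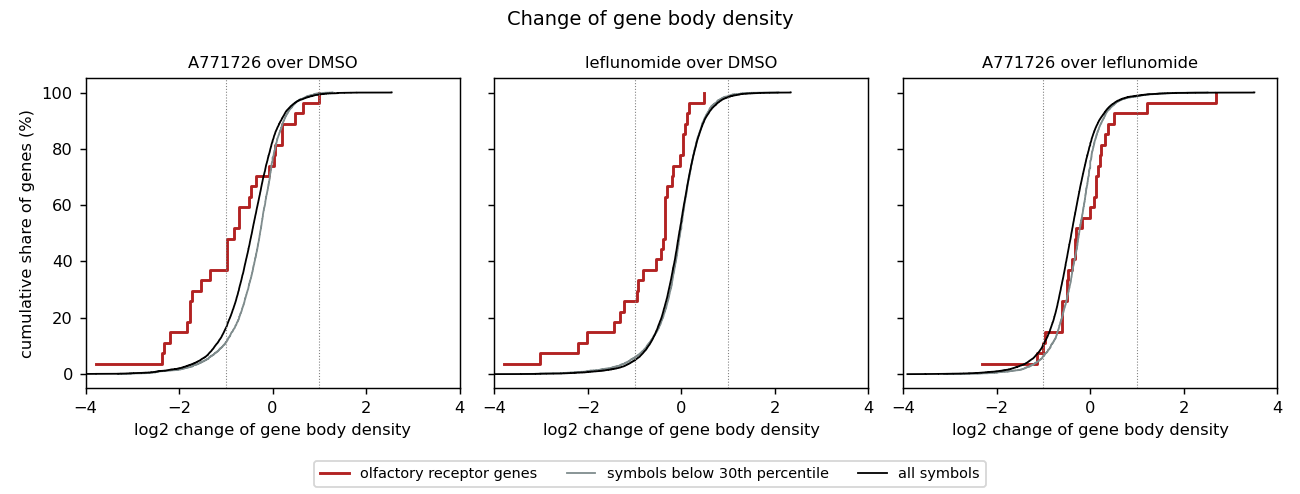
Cumulative share of genes (%) against the log2 change of gene body density for A771726 over DMSO, leflunomide over DMSO and A771726 over leflunomide, for the 27 olfactory receptor genes, the symbols below the 30th percentile and all symbols; dotted lines mark 2-fold. In the panels with DMSO the receptor line lies left of the others at the lower end (10 and 7 genes at least 2-fold lower), and in the right panel its middle lies right of that of all symbols (medians −0.29 and −0.40 for receptor genes and all symbols).

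The comparison of the compounds does not use DMSO values, though the rows were still chosen on them. A771726, the form with the opened ring, was set against leflunomide at the same dose and time, as the pair of compounds compared here. The median log2 change was −0.29 over the receptor genes, −0.40 over all symbols and −0.24 below the 30th percentile. At least 2-fold lower were 3 of the 27 (11.1%), against a background of 10.6% and 6.46%, and 2 were at least 2-fold higher, against 1.13% and 1.34%. The share of lower genes is near the background of all symbols. By the plain quotient 4 were lower and 3 higher, against 18.9% and 2.87% of all symbols. Relative to the median of all symbols the median of the receptor genes had the opposite sign, 0.11, with 1 gene at least 2-fold lower and 2 higher. The 3 lower genes were OR51Q1 (−1.14), OR51B2 (at 2-fold on this scale) and OR1F2P, listed at 0 with A771726. The 2 higher genes were OR2L1P (0.0377 with A771726 and 0.0151 with leflunomide, log2 change 1.20) and OR51B6, listed at 0 with leflunomide. Means without library values give no interval of the difference, so neither a difference nor likeness of the compounds at these genes is shown.

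Class I genes were 6 of the 27. They were OR51B2, OR51B5, OR51B6, OR51I2, OR51M1 and OR51Q1, with median densities of 0.0101 with A771726, 0.0111 with leflunomide and 0.0170 in DMSO. The 21 class II genes had medians of 0.00515, 0.00905 and 0.0122, again the values of OR4F3, OR4F16 and OR4F29. In the later assembly the gene model of OR51B5 spans OR51B6, OR51I2, OR51M1 and OR51Q1, so a read in these can count for OR51B5 as well, while OR51B2 has no overlapping gene there. Whether reads were counted by strand is not given in the sources used here. OR51B5, which has been described outside the nose, had densities of 0.00820, 0.0106 and 0.0150. Its libraries could be split, at 0.0085 and 0.0079 with A771726 and 0.0094 and 0.0117 with leflunomide, so the A771726 values lay below the leflunomide values, by at most 0.0038. Of 14 receptors described outside the nose it was the 1 measured, and the others, OR51E2 of pigment cells among them, were not analysed here. OR2L1P likewise lies within the model of OR2L13, which had at most 0.00150 in each group. OR8U8 had the lowest densities, from 0.00010 to 0.00025. The remaining genes, OR2B11, OR8G1 and the OR4F genes, had densities between 0.00200 and 0.0194 and log2 changes over DMSO from −2.36 to 0.03.

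Genes of olfactory signalling and receptor choice were measured in 9 of 18 cases. Median gene body densities were 0.00900 with A771726, 0.0173 with leflunomide and 0.0124 in DMSO. With A771726 1 of the 9 was at least 2-fold lower than in DMSO, against 16.4% of all symbols, namely GNG13, a G protein gamma subunit of sensory cells (0.0121 with A771726, 0.0303 with leflunomide and 0.0427 in DMSO), with none higher, and with leflunomide none passed 2-fold either way, against 4.93% of all symbols lower. GNAL had 0.00405, 0.00860 and 0.00980, with no promoter signal in any group. ADCY3, which other cells also express, had 0.0164, 0.0205 and 0.0217, and CNGB1, a channel subunit, had 0.00605, 0.00635 and 0.00780. Higher levels were seen at LDB1, a cofactor of LHX2 with broad expression (0.0294, 0.0511 and 0.0496), and at ATF5 (0.0429, 0.0454 and 0.0652), a stress factor that also acts in receptor choice. OMP, CNGA2, RTP1 and RTP2, which define mature olfactory neurons, were not analysed here.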

How the data were processed

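GRO-seq signal was measured in 6 A375 samples, 2 each with A771726, leflunomide and DMSO. The submitters' processing notes name Bowtie 0.12.9, bedtools and hg18; the sources used here do not give window limits, scaling between libraries or library depth. The deposited promoter and gene body values are read density signal (coverage per length), and per the file headers the authors averaged them over the libraries of a group. The deposited traveling ratio is promoter over gene body density, also averaged by the authors. The header A771762 was read as A771726.

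From these values log2 changes were computed (Python 3.11.15, pandas 2.3.3) with a pseudocount of 0.0022, the median over groups of the 10th percentile of values above 0, and with no filter on low values, since the members are low genes. Genes at least 2-fold apart were counted. The read recovery, chosen after seeing the data, allowed up to 20 reads per library, a tolerance of 6e-05 and a gene body read worth 0.155 to 0.175 of a promoter read, and used the undefined ratios. Without them 13 of the solved genes still had 1 solution. In all 13 the libraries at 0 were those the ratio implies, but this follows from their being solved with the ratios and is no separate check. No gene had a single solution without the undefined ratios that these then excluded. Of 4 gene and group pairs with a finite ratio above 0, 3 fitted it, and the gene that did not (OR4F6) was left out. The members and lists were chosen with earlier results of these data known. Named genes are the 12 with the highest density, the 5 largest increases and decreases per comparison, and the fixed lists; the other members were named so that each is accounted for.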

Additional observations from a re-analysis of the deposited data

How the results depend on the processing

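No paired analysis was possible because the deposited columns are group means that carry no replicate, so leaving out a replicate and the replicate block were not run. Of the values compared under other settings, 70 were labelled as the same, 23 as moved and 1 as changed in sign. The label allowed a shift of 0.1 in a median log2 change and of 10% in a density. Counts were allowed more. The 70 include 7 genes lower becoming 10 with leflunomide, and 10 becoming 14 with A771726, both over DMSO by the plain quotient. For A771726 over DMSO (10 genes at least 2-fold lower, 0 higher, median −0.83) a pseudocount 5 times larger gave 6 lower and a median of −0.50. A smaller one gave 13 lower, 1 higher and −0.96, and the plain quotient, chosen after seeing the data, 14 lower and 1 higher. The filter at the 30th percentile gave 4 lower and −0.72, and centring on the median symbol gave 2 higher and −0.39. Counting identical genes once, chosen after seeing the data, gave −0.72. For leflunomide over DMSO (7 lower, −0.35) the larger pseudocount gave 4 lower and −0.23, and the filter 3 lower. For A771726 over leflunomide (3 lower, 2 higher, −0.29) the plain quotient gave 4 lower and 3 higher, the larger pseudocount gave 0 lower, 1 higher and −0.12, the filter 1 lower and 0.00, and centring 1 lower and 0.11, the opposite sign. Protein-coding rows alone gave 1 higher, and identical genes counted once −0.18. With protein-coding rows the median density was 0.00638 with A771726 and 0.0136 in DMSO. The filter and row choices change which genes are counted; the cause of the other moves was not tested. Centring of the traveling ratio was not run, since no receptor gene had a usable quotient over DMSO. For genes with a few reads, the value of 1 read limits each fold.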
